A study of Mus musculus with 77 samples.

Results

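Bone marrow-derived macrophages of Trem2 knockout (KO) mice and of DBA mice were compared after culture in hyperoxia. The comparison takes in all genes of the macrophage expression table and rests on 4 libraries, 2 of KO and 2 of DBA cells, of 77 samples in the series and of 12 macrophage RNA libraries. The series asked how Trem2 and the transcription factor p53 take part in the injury of newborn lungs by high oxygen, with RNA-seq and p53 ChIP-seq of lungs and macrophages. Both groups were exposed to hyperoxia for 24 h and carry the same date code, and matched cultures were kept in room air. The labels do not give the oxygen level in culture, and the code invitro95 in the column names, which room-air and hyperoxia columns share, is not explained. KO and DBA mice were bought as 2 strains, and the KO strain is known to be on a C57BL/6J background. Trem2 genotype and strain background therefore change together between the groups and cannot be told apart here. Wild-type C57BL/6J (B6) macrophages exist in the same table under another date code, so their levels are given beside the comparison. The B6 libraries do not enter the difference between KO and DBA. They do enter the spread estimate shared by all 12 macrophage libraries, from which standard errors (SE), intervals and p-values were taken.

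Trem2 is a lipid-sensing surface receptor of macrophages and microglia that signals through the adaptor Tyrobp and the kinase Syk. It is known for its role in phagocytosis and in the gene programme of lipid-laden macrophages. Macrophages grown from bone marrow with growth factor are a common culture model and share many, not all, features with macrophages of the lung. The transcription factor p53 is activated by DNA damage, which high oxygen can cause, and raises genes of cell-cycle arrest, repair and death.

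The values are TPM, a measure of transcript abundance in which reads are scaled for transcript length and library size. The 4 libraries held an estimated 17.8 to 44.8 M (mega) reads. Whether the 2 libraries of a group came from separate animals is not stated in the labels. The p-values reflect how far libraries of a group lie apart, over all 6 macrophage groups with B6 among them, which may be technical spread. The 2 columns of each B6 group carry different codes, MF and F, while all KO and DBA columns carry MF. Set against counting noise, the B6 pairs differed most of the 6 groups. Their mean chi-square per gene was 24.35 in hyperoxia and 23.73 in room air, against 4.44 in both compared groups. The labels were checked against macrophage genes. The F4/80 gene Adgre1 measured 520 and 513 TPM in KO and 502 and 516 TPM in DBA, Cd68 measured 2141 and 2082 TPM against 2185 and 2063 TPM, and the lysozyme gene Lyz2 12388 and 12274 TPM against 12500 and 12438 TPM. Adgre1 and Cd68 overlapped between the groups, and none of these 3 genes was called. They belong to a list of 15 macrophage identity genes, of which 3 others were called higher in KO and 5 lower. That is 53.3% called, against 21.7% over all genes. None of the 5 tested genes on chromosome Y was called in hyperoxia.

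A log2 fold change (log2FC) is the difference between group means of log2(TPM + 1), KO minus DBA, and understates the TPM ratio of genes with low levels. A gene was called at a limma adjusted p below 0.05. Of 12320 genes tested, 2676 were called, which is 21.7%. In KO 963 genes were higher (7.82%) and 1713 lower (13.9%), with a median log2FC of -0.07 over all genes. With a minimum absolute log2FC of 1, 258 were higher and 273 lower. The split by direction depended on scaling: higher genes made up 36.0% of the calls as deposited, 51.4% after quantile normalization and 61.6% after centring each library on its median, which moved the median of all genes to 0.04. Leaving out KO library 1, KO library 2, DBA library 1 or DBA library 2 gave 1420, 1401, 1607 and 1413 calls. The share of genes called was highest on chromosome 1 (28.8% of 701), which carries the Ifi200 cluster, and second highest on chromosome 17 (25.1% of 674), which carries the H2 locus and Trem2.

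**Figure D1:**
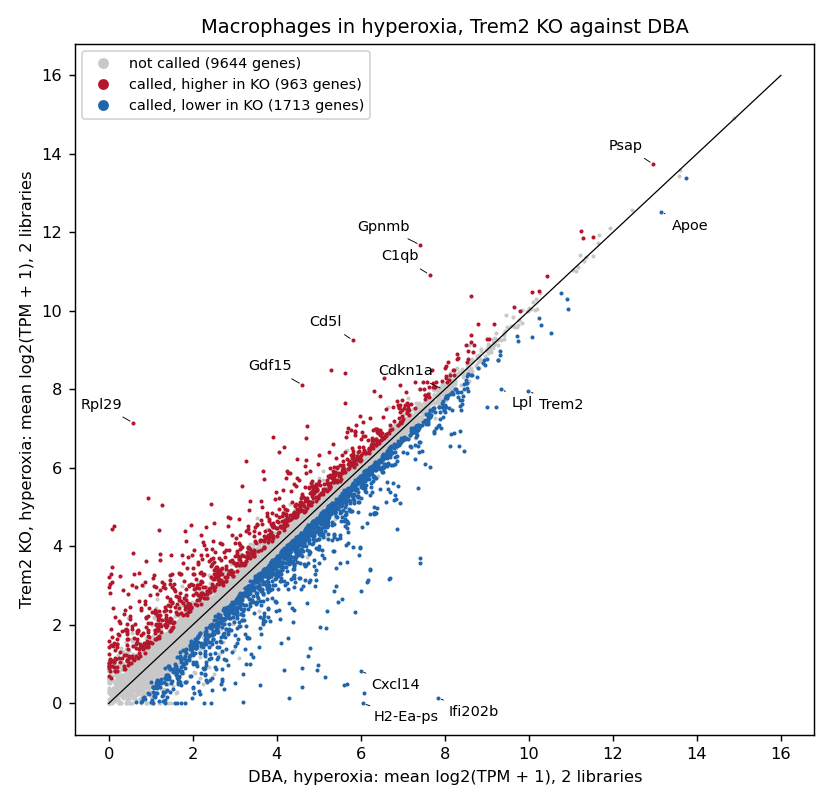
Each point is 1 of 12320 genes, at its mean log2(TPM + 1) over the 2 DBA libraries (horizontal) and the 2 KO libraries (vertical) in hyperoxia, and the line marks equal levels. Red genes (963) were called higher in KO and blue genes (1713) lower. Gpnmb, C1qb, Cd5l and Gdf15 stand far above the line, Trem2 and Lpl below it, and Cdkn1a on it.

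Trem2 (NM_001272078, chromosome 17, 48346401 to 48352276 on mm10) checked the genotype label. It measured 252 and 243 TPM in KO and 1021 and 1007 TPM in DBA. The KO libraries lay far below the DBA libraries, 4.1-fold by the means (log2FC -2.03 ± 0.05 SE, adjusted p = 7.75e-09), and were not at 0. The B6 libraries in hyperoxia, at 908 and 917 TPM, were near the DBA level. A value over the whole transcript does not show which part of the gene the KO allele changes. Of the 19 tested Trem receptors and signalling partners, 1 was higher, 3 were lower and 15 were not called (21.1% called, near the 21.7% over all genes, median log2FC 0.05 against -0.07). Besides Trem2 the lower ones were Syk, at 185 and 186 TPM against 234 and 227 TPM (log2FC -0.31 ± 0.05 SE, adjusted p = 0.0015), and Vav3, a guanine exchange factor of the same signalling chain (log2FC -0.32, adjusted p = 0.00564). The B6 libraries in hyperoxia lay below KO for both, at 146 and 143 TPM for Syk and 24.0 and 22.3 TPM for Vav3. Vav3 lost its call without DBA library 2. Tyrobp, the adaptor itself, measured 1200 and 1180 TPM against 1099 and 1106 TPM and was not called (log2FC 0.11 ± 0.08 SE, adjusted p = 0.347). With only the 4 libraries in the fit, Tyrobp passed at the same log2FC.

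The genes that flank Trem2 in its cluster were mostly not called. Of 6 tested, Trem2 was lower, Treml2 was higher and 4 were not called, Treml1, Foxp4, Oard1 and Nfya (33.3% called, all genes 21.7%). Treml2, a related receptor gene, measured 3.23 and 2.90 TPM in KO and 0.562 and 0.524 TPM in DBA (log2FC 1.40 ± 0.25 SE, adjusted p = 0.00328). It measured 1.29 and 0.652 TPM in B6, where the lower library lies close to the DBA level.

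The 15 largest differences in each direction among called genes were next. Their KO and DBA libraries do not overlap by the rule that chose them, as is the case for 67.9% of all genes tested, and all 30 genes kept their direction and call in every one of 12 alternative settings. The settings reuse the libraries from which these genes were picked as the largest differences, so they give no separate support. Each of these 30 was also called in room air in the same direction, as were 73.5% of all genes called in hyperoxia. In 29 of the 30 the mean level of the B6 macrophages in hyperoxia was nearer to KO than to DBA. The exception was Klk1b11, a kallikrein gene listed at 0 in both DBA libraries and at 8.36 and 8.24 TPM in KO. How often B6 lay nearer to KO over all genes was not counted, so this share has no background beside it. DBA reads were aligned to the mm10 reference, which is the C57BL/6J genome, and the part of that choice in any difference was not tested.

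The largest difference among them in the KO direction was Rpl29, a ribosomal protein gene, at 145 and 136 TPM in KO and 0.537 and 0.458 TPM in DBA. The largest in the DBA direction was Ifi202b, an interferon-inducible DNA-binding protein gene, at 0.164 and 0.042 TPM against 213 and 244 TPM. Rpl29, Rpl38 and Atp5g2 have near-identical processed copies in the genome, and reads of the H2-Q genes, of Ifi202b and Mndal, of Nlrp1b, of Klk1b11, of Trim12a, of Sfi1 and of the zinc-finger genes Zfp984 and Zfp33b can be shared with close relatives, so their levels are uncertain. Among genes without such close copies, Gpnmb, C1qb, Cd5l and Gdf15 were the most abundant higher ones. Cd5l, a secreted scavenger protein of macrophages, measured 619 and 594 TPM in KO and 53.4 and 57.3 TPM in DBA (log2FC 3.43 ± 0.13 SE, adjusted p = 1.02e-07). Mcoln3, a lysosomal cation channel gene, measured 13.7 and 13.0 TPM against 0.246 and 0.762 TPM. Fggy, a carbohydrate kinase gene, Cd22, an inhibitory sialic acid receptor gene, and Mamdc2 measured 7.15 to 10.8 TPM in KO and at most 0.127 TPM in DBA. On the DBA side, the chemokine gene Cxcl14 measured 0.741 and 0.799 TPM in KO and 64.7 and 61.0 TPM in DBA (log2FC -5.17 ± 0.10 SE, adjusted p = 1.29e-09). Ctse, which encodes the aspartic protease cathepsin E, measured 4.15 and 3.97 TPM against 56.2 and 58.1 TPM. Slc22a4, an ergothioneine transporter gene, measured 7.65 and 8.34 TPM against 99.9 and 103 TPM. The adhesion molecule genes Clmp and Nrcam, the sulfotransferase gene Chst10 and the proton pump subunit gene Atp6v0e2 were at most 1.31 TPM in KO and 18.5 to 26.5 TPM in DBA.

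**Figure D2:**
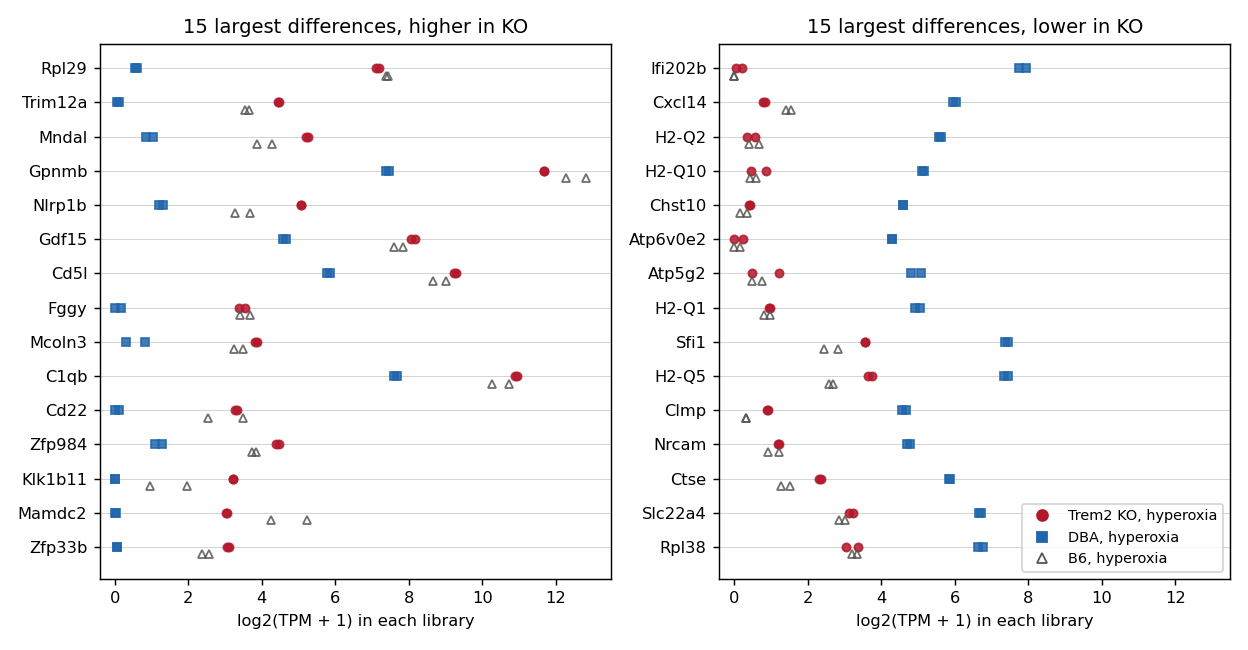
Points are log2(TPM + 1) of single macrophage libraries in hyperoxia for the 15 largest called differences higher in KO (left) and lower in KO (right), with KO in red circles, DBA in blue squares and B6 in open triangles. In 29 of the 30 genes the B6 mean is nearer to the KO mean than to the DBA mean.

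Genes of the H2 locus and of antigen presentation, which display peptides to T cells, were called most often among lists of at least 20 tested genes. Of 31 tested, 8 were higher in KO and 14 lower (71.0% called, all genes 21.7%, median log2FC -0.12). Of the called class II genes, H2-Aa, H2-Ab1, H2-Eb1, H2-DMb1 and Cd74, the invariant chain, were higher in KO, while H2-DMa and H2-Ea-ps were lower. H2-Aa measured 156 and 157 TPM against 94.6 and 86.9 TPM (log2FC 0.78, adjusted p = 0.00948), and H2-Ab1, H2-Eb1, H2-DMb1 and Cd74 had log2FC of 0.70, 0.72, 1.79 and 0.80. H2-DMa, whose product helps to load peptides, had a log2FC of -0.42 (adjusted p = 0.00804). Most classical and nonclassical class I genes that were called were lower in KO. H2-K1 measured 1085 and 1036 TPM against 2005 and 1919 TPM (log2FC -0.89, adjusted p = 0.000178), and H2-T23 and H2-T24 had log2FC of -0.61 and -1.62. The other class I genes H2-D1 and H2-L were higher in KO, with log2FC of 0.35 and 0.80. Calls were lost for Cd74 when any 1 of the 4 libraries was left out, for H2-Aa and H2-Ab1 without DBA library 2 or either KO library, for H2-DMa without DBA library 1 or KO library 1, and for H2-D1 under quantile normalization and with no filter on low values. The class II gene H2-Ea-ps, which C57BL/6 mice are known not to express, was listed at 0 in both KO and both B6 libraries and at 63.3 and 66.8 TPM in DBA. C57BL/6 and DBA/2 mice are known to carry different haplotypes of this locus, and class I genes share long stretches of sequence, so the level of any single H2 gene is uncertain.

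The Ifi200 family, interferon-inducible sensors and regulators encoded side by side on chromosome 1, showed the second largest share of called genes among lists of at least 10 tested. Of 12 tested, 6 were higher and 2 lower in KO (66.7% called, all genes 21.7%, median log2FC 0.56). Mndal measured 35.8 and 37.0 TPM against 0.801 and 1.04 TPM, and Ifi209 25.6 and 25.9 TPM against 6.21 and 6.13 TPM (log2FC 1.90, adjusted p = 2.35e-06). Ifi213 and Ifi208 were also higher, with log2FC of 2.33 and 1.17. Ifi202b stood opposite to them, as given above. Ifi203 and Ifi204 were called higher and Ifi211 lower, and these calls were lost when any 1 of the 4 libraries was left out. With no filter on low values the calls of Ifi203 and Ifi211 were lost, that of Ifi211 also under median centring and quantile normalization. Of the wider list of 38 interferon-stimulated genes, 4 were higher and 2 lower (15.8% called, against 21.7% of all genes, median log2FC 0.09). Its higher members were Gbp2, Gbp3 and Gbp7, guanylate-binding proteins of host defence, with log2FC of 1.01 to 1.14 at 7.59 TPM or less, and Bst2, an antiviral tether, at 219 and 198 TPM against 115 and 115 TPM. Xaf1, a gene of apoptosis control, was lower in KO (10.1 and 9.57 TPM against 40.5 and 42.2 TPM, log2FC -1.97, adjusted p = 5.41e-05).

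Complement genes were higher in KO in 6 of 20 cases and lower in 1 (35.0% called, all genes 21.7%, median log2FC -0.07). The 3 chains of C1q, the molecule that starts the classical pathway and tags debris for uptake, were all higher. C1qb (NM_009777, chromosome 4, 136880145 to 136886177) measured 1982 and 1889 TPM in KO and 204 and 195 TPM in DBA, 9.72-fold by the means (log2FC 3.27 ± 0.14 SE, adjusted p = 2.32e-07). C1qa measured 315 and 311 TPM against 95.1 and 90.3 TPM (log2FC 1.74 ± 0.10 SE, adjusted p = 2.05e-06). C1qc measured 1363 and 1318 TPM against 407 and 375 TPM (log2FC 1.78 ± 0.14 SE, adjusted p = 1.53e-05). C1qb had a larger log2FC than the other chains, whose genes lie beside it, and the difference between chains was not tested. The receptors for the C5a fragment were higher as well, C5ar1 at 271 and 276 TPM against 122 and 122 TPM (log2FC 1.16) and C5ar2 at 9.22 and 8.94 TPM against 0.711 and 0.606 TPM (log2FC 2.60). The regulator Cd59a was the member called lower.

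Surface receptors of macrophages went in different directions. Of 15 macrophage identity genes, 3 were higher in KO, 5 lower and 7 not called (53.3% called, all genes 21.7%, median log2FC -0.02). Lower in KO were the lipopolysaccharide co-receptor Cd14, at 96.8 and 90.2 TPM against 326 and 316 TPM (log2FC -1.77 ± 0.23 SE, adjusted p = 0.000466), and the scavenger receptor Msr1, at 35.4 and 37.1 TPM against 107 and 121 TPM (log2FC -1.63 ± 0.13 SE, adjusted p = 2.09e-05). Marco, another scavenger receptor, was lower at 2.42 and 2.02 TPM against 9.75 and 7.90 TPM. Higher in KO were the mannose receptor Mrc1, at 238 and 248 TPM against 128 and 140 TPM (log2FC 0.85, adjusted p = 0.00186), the growth factor receptor Csf1r (log2FC 0.49) and the receptor Mertk, which binds dying cells (log2FC 0.45). Csf1r lost its call when any 1 of the 4 libraries was left out, and Mertk without DBA library 1 or KO library 1. Among 25 growth factor receptor and adhesion genes 5 were higher and 6 lower (44.0% called, median log2FC -0.10). Itga4, an integrin gene, was higher at 40.7 and 42.3 TPM against 18.0 and 20.7 TPM (log2FC 1.07). Of 16 genes of alternative activation 6 were higher and 1 lower (43.8% called, median log2FC 0.40). Most were at low levels, such as Cbr2 at 8.07 and 9.30 TPM against 1.15 and 1.05 TPM. Mgl2 measured 3.59 and 4.08 TPM against 0.562 and 0.049 TPM.

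Genes of lipid-associated macrophages, the programme for which Trem2 is best known, were lower in KO in 8 of 26 cases and higher in 3. That is 42.3% called, against 21.7% over all genes (median log2FC -0.13). Lpl, which releases fatty acids from lipoproteins, measured 249 and 268 TPM in KO and 614 and 683 TPM in DBA (log2FC -1.32 ± 0.14 SE, adjusted p = 0.000147). The fatty acid receptor Cd36 measured 667 and 713 TPM against 1444 and 1525 TPM (log2FC -1.10 ± 0.23 SE, adjusted p = 0.00709), and lost its call without DBA library 2 and without KO library 1. Abcg1, a sterol exporter, Apoe, a lipid carrier, Plin2, a lipid droplet coat protein, and Lipa, the lysosomal lipase, were lower with log2FC of -0.77, -0.62, -0.61 and -0.31. Of these, Apoe and Lipa lost their calls when any of the 4 libraries was left out and under median centring, Lipa also under quantile normalization. Higher in KO were Gpnmb, Spp1 and Cd63. Gpnmb (NM_053110, chromosome 6, 49036518 to 49058182), a membrane glycoprotein of stressed phagocytes, measured 3284 and 3268 TPM against 175 and 165 TPM, 19.2-fold by the means (log2FC 4.26 ± 0.20 SE, adjusted p = 3.84e-07). DBA/2J mice are known to carry a premature stop variant in this gene, and its part in the difference was not tested. Spp1, which encodes osteopontin, measured 815 and 817 TPM against 411 and 477 TPM (log2FC 0.88). The B6 libraries lay outside the range of KO and DBA for Lpl (1928 and 1943 TPM) and Spp1 (3111 and 2870 TPM).

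Lysosomal genes were higher in KO in 11 of 37 cases and lower in 4 (40.5% called, all genes 21.7%, median log2FC 0.09). Glb1, the lysosomal beta-galactosidase, measured 74.4 and 69.9 TPM against 26.6 and 23.3 TPM (log2FC 1.50 ± 0.09 SE, adjusted p = 2.06e-06). Psap, which encodes the saposins, measured 13729 and 13593 TPM against 8072 and 7872 TPM (log2FC 0.78 ± 0.11 SE, adjusted p = 0.000842), a call lost with no filter on low values (adjusted p = 0.0887). Atp6v0c, a proton pump subunit with processed copies, measured 332 and 349 TPM against 56.0 and 41.7 TPM, and its level is uncertain. The sulfatase gene Sgsh was lower in KO (33.6 and 34.2 TPM against 61.5 and 61.3 TPM, log2FC -0.84). Genes of sterol and fatty acid synthesis were higher in 8 of 28 cases and lower in 1 (32.1% called, median log2FC 0.20). Sc5d, an enzyme of late cholesterol synthesis, measured 14.9 and 14.2 TPM against 9.41 and 9.00 TPM (log2FC 0.61 ± 0.10 SE, adjusted p = 0.00235), and the KO libraries lay above the DBA libraries. Stard4, a sterol carrier, was the member called lower.

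**Figure D3:**
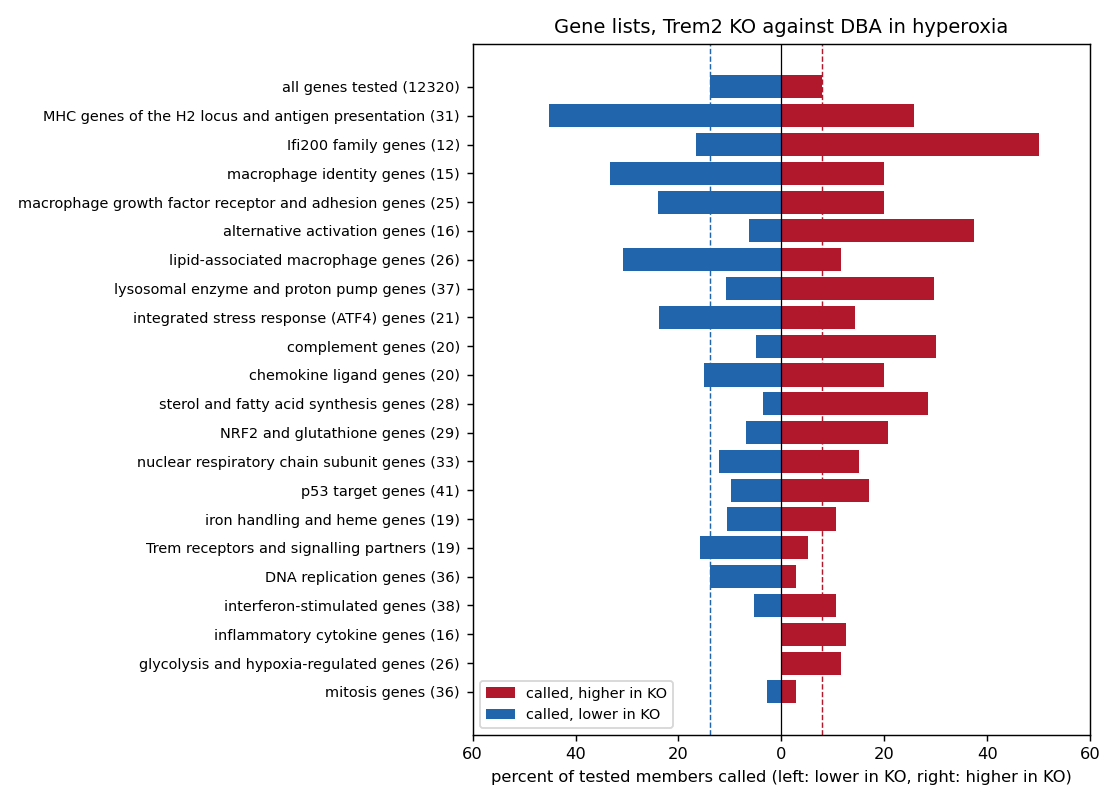
Bars give the percent of tested members of each list that were called higher in KO (red, to the right) or lower in KO (blue, to the left) in hyperoxia, with the number tested in brackets, for lists with at least 10 tested genes. Dashed lines mark the percent over all genes tested, 7.82 higher and 13.9 lower.

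Target genes of p53 were called about as often as other genes: of 41 tested, 7 were higher in KO and 4 lower, 26.8% against the background of 21.7% (median log2FC 0.12). Cdkn1a (NM_007669, chromosome 17, 29093769 to 29100722), which encodes the cell-cycle inhibitor p21, measured 257 and 252 TPM in KO and 246 and 252 TPM in DBA, with a log2FC of 0.03 and a 95% interval of -0.26 to 0.31 (adjusted p = 0.907). Mdm2, the feedback inhibitor of p53, measured 129 and 124 TPM against 137 and 145 TPM and was not called (log2FC -0.15 ± 0.08 SE, adjusted p = 0.213). With only the 4 libraries in the fit Mdm2 passed as lower in KO. Trp53 itself measured 27.9 and 30.4 TPM against 32.0 and 29.1 TPM, which overlap. The lower members were the kinase gene Plk2, the death gene Bbc3, the ribonucleotide reductase gene Rrm2b and the antiproliferative gene Btg2, with log2FC of -0.71, -0.48, -0.45 and -0.42. Higher members besides Gdf15 included the epoxide hydrolase gene Ephx1 (46.8 and 43.7 TPM against 21.1 and 20.7 TPM, log2FC 1.08), the sulfatase gene Sulf2 (log2FC 0.84) and the death gene Pmaip1 (log2FC 0.72). Calls were lost when 1 library was left out for Btg2 (any of the 4), Bbc3 (DBA library 1 or either KO library), Rrm2b (DBA library 2 or either KO library) and Pmaip1 (DBA library 1 or KO library 2), and that of Rrm2b also under quantile normalization and median centring.

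Gdf15 (NM_011819, chromosome 8, 70629393 to 70632095), a secreted stress cytokine that is a target of p53 and of other stress pathways, stood apart from the rest of that list. It measured 286 and 267 TPM in KO and 24.1 and 22.9 TPM in DBA, 11.8-fold by the means (log2FC 3.50 ± 0.24 SE, adjusted p = 6.08e-06). The B6 libraries, at 230 and 194 TPM, lay near KO. In room air Gdf15 measured 38.5 and 32.8 TPM in KO and 5.03 and 2.34 TPM in DBA, so its level rose with oxygen in both groups, with log2FC of 2.92 (adjusted p = 6.75e-05) and 2.45 (adjusted p = 0.000268), from different starting levels.

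The p53 ChIP-seq of KO macrophages in hyperoxia, called by the authors on combined replicates, holds 1320 peaks, and DBA macrophages were not part of the p53 data used here. Of the tested genes, 365 had a peak centre within 10 kb of their start site, and 80 of these (21.9%) differed between KO and DBA, a share near the background of 21.7%. Among them were 9 genes of the p53 list, Bbc3, Dyrk3, Cdkn1a, Mdm2, Trp53cor1, Zmat3, Ccng1, Psrc1 and Bax, of which Bbc3 was called. Bbc3 had the highest score of the 9, 140 on the authors' scale of tags per 10 M, and Cdkn1a had a peak of score 87 centred 2849 bases upstream of the start site used in the expression table. That peak overlaps the upstream window of another RefSeq start of Cdkn1a. No peak lay within 10 kb of the Gdf15 start. The windows of 250 bases upstream of these starts are printed because the interval for Cdkn1a reached no further than 0.31 on the log2 scale and Gdf15 differed most of the list (RefSeq, GRCm38.p6, the assembly of mm10). Capitals mark CATGNNNNNNCATG, a pair of the cores that p53 sites can hold, at the spacing of adjoining decamers. The motif is its own reverse complement, so both strands were searched at once.
Cdkn1a upstream start, chr17:29090729-29090978, plus strand: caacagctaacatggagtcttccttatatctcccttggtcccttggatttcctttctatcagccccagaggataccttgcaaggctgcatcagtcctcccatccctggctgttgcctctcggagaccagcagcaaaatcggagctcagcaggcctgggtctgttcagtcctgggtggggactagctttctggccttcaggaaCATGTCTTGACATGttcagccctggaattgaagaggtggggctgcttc
Gdf15 downstream start, chr8:70632096-70632345, minus strand: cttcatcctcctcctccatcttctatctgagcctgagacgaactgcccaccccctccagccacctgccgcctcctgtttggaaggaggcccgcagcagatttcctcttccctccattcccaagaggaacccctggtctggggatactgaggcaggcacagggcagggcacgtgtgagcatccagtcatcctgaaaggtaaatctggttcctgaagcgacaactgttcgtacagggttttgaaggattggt
The motif starts 48 bases before the upstream Cdkn1a start, inside the peak region, and is absent from the other 3 windows of these genes. It occurs in 161 of 32851 RefSeq windows of the same length, 0.49%. A match describes these letters and not binding, and the windows are those of the C57BL/6J reference for both groups.

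Genes of the NRF2 antioxidant response, which protects against oxidants, were higher in KO in 6 of 29 cases and lower in 2. That is 27.6% called, against 21.7% over all genes (median log2FC 0.10). Gclm, the modifier subunit of the enzyme that starts glutathione synthesis, measured 164 and 156 TPM in KO and 60.7 and 64.0 TPM in DBA (log2FC 1.35 ± 0.14 SE, adjusted p = 0.000139). Gclc, the catalytic subunit of the same enzyme, was lower in KO, at 34.8 and 36.8 TPM against 45.1 and 47.8 TPM (log2FC -0.37, adjusted p = 0.0163), a call lost when any of the 4 libraries was left out. The superoxide dismutase gene Sod1 measured 192 and 193 TPM against 114 and 122 TPM (log2FC 0.70, adjusted p = 0.000252), and the glutathione transferase gene Gstm1 and the pentose phosphate gene Pgd had log2FC of 0.54 and 0.47. Hmox1, the inducible heme oxygenase, measured 526 and 514 TPM against 541 and 540 TPM and was not called (adjusted p = 0.786). Nnt, a mitochondrial transhydrogenase of NADPH supply that is mutated in C57BL/6J, measured 8.20 and 9.07 TPM against 9.08 and 8.25 TPM, which overlap. As for Trem2, a value over the whole transcript does not show which part of the gene an allele changes. Of 21 genes of the integrated stress response, the programme of ATF4, 3 were higher and 5 lower (38.1% called, median log2FC -0.04). Slc3a2, the heavy chain of amino acid exchangers, measured 213 and 209 TPM against 345 and 337 TPM (log2FC -0.69, adjusted p = 2.62e-05). Slc7a11, the cystine importer that pairs with it, was higher in KO (12.8 and 13.0 TPM against 8.64 and 9.42 TPM, log2FC 0.47, adjusted p = 0.0385), and lost its call when any of the 4 libraries was left out.

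Of 20 chemokine genes, 4 were higher in KO and 3 lower (35.0%, median log2FC 0.38). Cxcl16, a membrane-bound chemokine that also binds oxidized lipoproteins, was lower at 118 and 115 TPM against 293 and 296 TPM (log2FC -1.33), and Ccl5 was higher at 9.59 and 7.81 TPM against 2.04 and 1.45 TPM, a call lost without DBA library 2 or KO library 1. The cytokine, replication, mitosis, glycolysis and iron lists that follow were called at 5.56% to 21.1%, none above the 21.7% over all genes. Of 16 inflammatory cytokine genes 2 were higher, Csf1 and Il15, with log2FC of 1.03 and 0.57, and Csf1 lost its call without DBA library 1 or KO library 2. Of 36 DNA replication genes 1 was higher and 5 lower, with Mcm6, a helicase subunit, at 12.4 and 14.6 TPM against 5.07 and 4.48 TPM, and Pcna, the polymerase clamp, at 151 and 160 TPM against 196 and 202 TPM. Pcna lost its call under median centring and without KO library 1 or either DBA library. Of 36 mitosis genes 1 was higher and 1 lower. Of 26 glycolysis and hypoxia-regulated genes 3 were higher, among them Vegfa at 84.3 and 83.3 TPM against 50.1 and 46.8 TPM (log2FC 0.78). Respiratory chain genes were higher in 5 and lower in 4 of 33 cases (27.3%). The 5 with the largest difference, Cox5b, Uqcrb, Ndufa1, Sdhb and Cox4i1, had log2FC between -0.33 and 0.37. The calls of Cox5b, Ndufa1 and Cox4i1 were lost without DBA library 2 or either KO library, and that of Uqcrb without DBA library 1 or either KO library. Of 19 iron genes 2 were higher and 2 lower, and Steap3, an iron reductase gene, was lower at 32.4 and 35.0 TPM against 124 and 121 TPM (log2FC -1.83 ± 0.07 SE, adjusted p = 1.13e-07). Glo1, which detoxifies methylglyoxal, is known to vary in copy number between strains, and was lower at 13.6 and 14.8 TPM against 32.2 and 29.4 TPM (log2FC -1.06).

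Markers of other cell types were low and in part higher in KO. The 13 neutrophil markers summed to 12.5 and 16.7 TPM in KO and 4.93 and 5.18 TPM in DBA, with Ly6g and Retnlg at 0 in all 4 libraries, and 2 of 7 tested were called higher, S100a9 and Ngp. The 10 mast cell and basophil markers summed to 3.22 and 3.14 TPM against 0.42 and 0.37 TPM, with 4 of them at 0 throughout, and Kit was called. The 10 dendritic cell markers summed to 224 and 202 TPM against 118 and 119 TPM, nearly all of it Bst2, which macrophages also express. Among the dendritic markers below the level tested, Xcr1 was at 0 in KO and at most 0.034 TPM in DBA, Clec9a measured 0.304 and 0.318 TPM against 0.036 and 0.046 TPM, Flt3 0.226 and 0.226 TPM against 0.033 and 0.042 TPM, and Ccr7 0.685 and 0.777 TPM against 0.363 and 0.116 TPM. Itgae measured 0.132 and 0.168 TPM against 0.024 and 0.121 TPM. Zbtb46 was lower in KO, at 0.228 and 0.087 TPM against 0.603 and 0.651 TPM. Cd209a, at 0.119 and 0.304 TPM against 0.283 and 0.206 TPM, overlapped. The 13 lymphocyte markers summed to 2.43 to 3.66 TPM in KO and 2.01 to 2.18 TPM in DBA, and the 10 erythroid and progenitor markers to 2.92 to 4.0 TPM and 1.65 to 2.15 TPM, of which Epor was called higher in KO. The 13 stromal markers summed to 37.9 and 48.1 TPM against 40.9 and 47.0 TPM. Of 9 tested, 1 was called higher, Acta2, and 2 lower, Pecam1 and Col3a1. The shares called were 28.6% of the tested neutrophil and 33.3% of the tested stromal markers, against 21.7% over all genes. Of the mast cell, dendritic and erythroid lists only 2, 3 and 1 members were tested, with 1 called in each. Of these calls, those of S100a9, Ngp and Acta2 were lost when any 1 of the 4 libraries was left out, that of Epor without DBA library 1 or KO library 1, that of Pecam1 without DBA library 2 or KO library 1, and that of Col3a1 without DBA library 2. The 15 macrophage genes summed to 16946 to 17161 TPM in KO and 17148 to 17341 TPM in DBA. In these bulk cultures fewer cells of a type and less RNA per cell cannot be told apart, and the part of these markers in the differences was not tested.

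The same contrast in room air, which shares no library with the one in hyperoxia, asked whether the differences depend on oxygen. Both contrasts used the same spread estimate for each gene, so their calls are not independent of each other. In room air 3095 of the 12320 genes were called (25.1%), 1240 higher in KO and 1855 lower. The genes called in both gases in the same direction numbered 1968, which is 73.5% of the calls in hyperoxia and 63.6% of those in room air. Across genes, which are not independent replicates, the log2FC of the pair had a Pearson correlation of 0.84. Another 6 genes were called in both gases in opposite directions. Slc7a11 was one of them, chosen for mention after its values were seen: in room air it measured 0.936 and 0.816 TPM in KO and 1.92 and 2.08 TPM in DBA (log2FC -0.68, adjusted p = 0.0066), and in hyperoxia KO was the higher group. The hyperoxia call of Slc7a11 was also lost with a pseudocount of 0.1 and with no filter on low values, and the difference between the gases did not pass (adjusted p = 0.166). The others were Wdr83os and 4 genes of small RNAs, and for 1 of the 6, Mir6918, the difference between the gases passed.

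**Figure D4:**
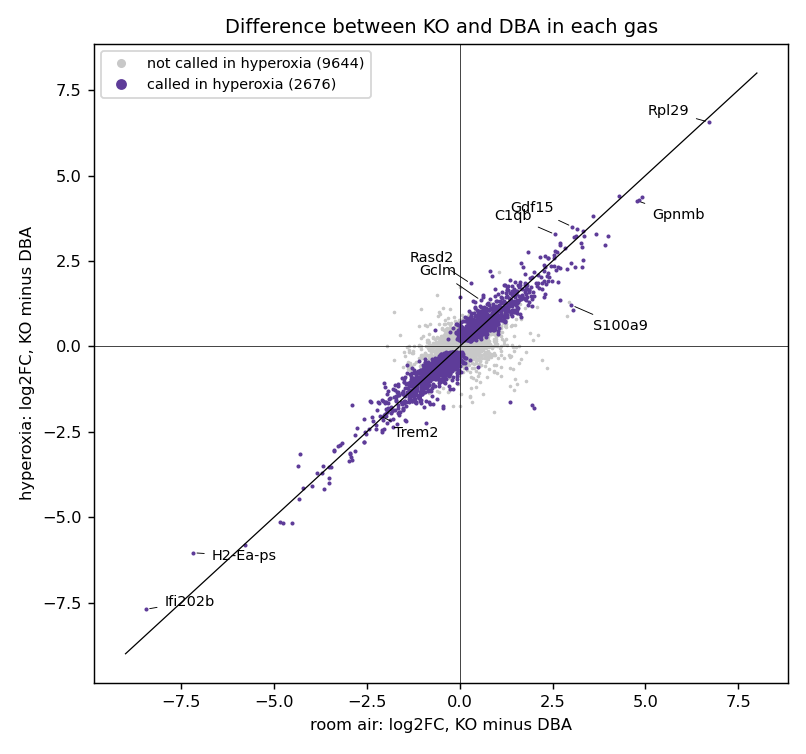
Each point is a gene, at the KO minus DBA log2FC in room air (horizontal) and in hyperoxia (vertical), with the 2676 genes called in hyperoxia in purple and the line of equality in black. Most called genes lie along the line, and Rasd2 lies above it.

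The difference itself, the change with oxygen in KO minus the change in DBA, was called for 4 of 12320 genes (0.0325%), and 850 genes (6.9%) had an unadjusted p below 0.05. Rasd2, which encodes a small GTPase, went from 0.406 and 0.433 TPM in room air to 6.91 and 6.68 TPM in hyperoxia in KO, and from 0.235 and 0.088 TPM to 1.16 and 1.19 TPM in DBA (difference 1.55 ± 0.19 SE on the log2 scale, adjusted p = 0.0398). H2-Ea-ps was called because its DBA level went from 153 and 134 TPM to 63.3 and 66.8 TPM while KO was listed at 0 throughout. The others, Mir20a and Mir6918, are miRNA entries of at most 3.14 TPM and were chosen for mention after their values were seen. The count was 0 to 1 when any single library was left out and 18 with only KO and DBA libraries in the fit. With a pseudocount of 0.1 Rasd2 and H2-Ea-ps were no longer called (adjusted p = 0.572 and 0.522), and Rasd2 was not called when any 1 of the 8 KO and DBA libraries was left out (adjusted p of 0.0818 to 0.335). Cdkn1a rose with oxygen in KO from 103 and 101 TPM (log2FC 1.31, adjusted p = 0.000178) and in DBA from 119 and 126 TPM (log2FC 1.02, adjusted p = 0.000839), with a difference of 0.29 and a 95% interval of -0.12 to 0.69 (adjusted p = 0.825). Mdm2 rose by log2FC 1.15 and 1.18. Gclm rose by log2FC 2.25 in KO and 1.47 in DBA, a difference of 0.78 with a 95% interval of 0.32 to 1.24 that did not pass adjustment (adjusted p = 0.433). Trem2 itself was not called as changing with oxygen in either group (log2FC 0.06 and -0.07).

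**Figure D5:**
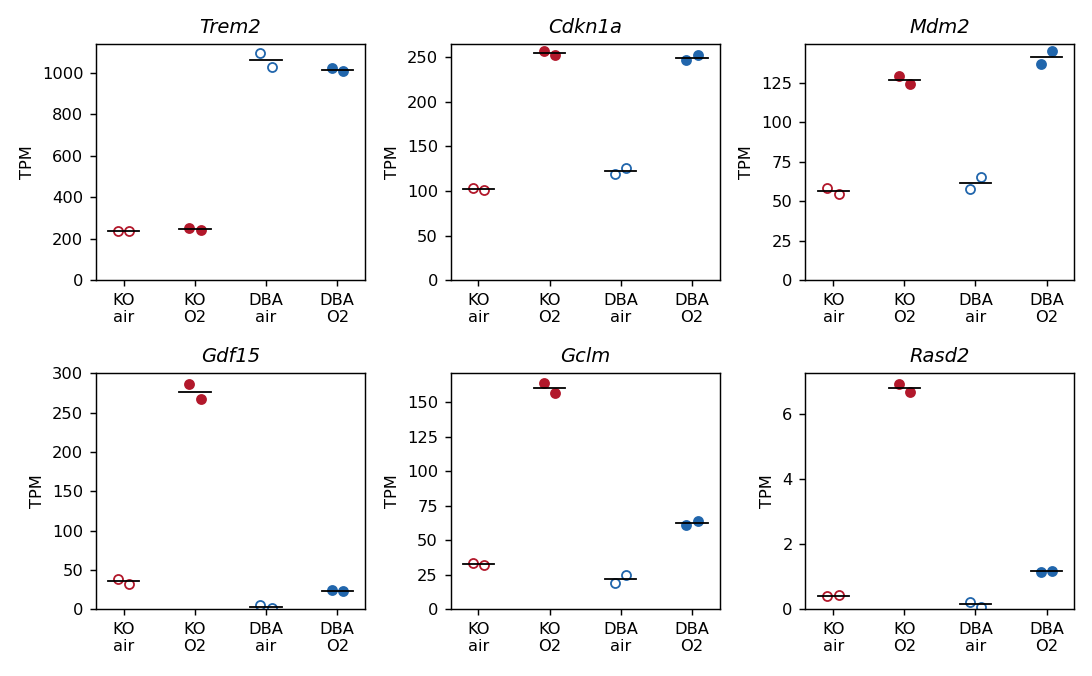
Points are TPM of single macrophage libraries in room air (open) and hyperoxia (filled) for KO (red) and DBA (blue), with a bar at the mean of each pair and axes starting at 0. In hyperoxia Cdkn1a overlaps between KO and DBA and Mdm2 lies lower in KO without being called, while Gdf15, Gclm and Rasd2 are higher in KO and Trem2 is lower.

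Levels in whole lungs of mice kept in 75% oxygen from soon after birth to day 14, 4 KO and 4 DBA libraries, were set beside the 30 leading macrophage differences. Lung values come from separately scaled tables and KO and DBA lungs carry different date codes, so group and date code cannot be told apart and the levels were not tested. For 22 of the 30 genes the KO and DBA lung libraries did not overlap and differed in the same direction as in macrophages, which was the case for 22.5% of all genes tested, 30.5% of those called and 20.2% of those not called in macrophages. For the other 8 of the 30 they overlapped. Some of the 22 were near 0 in lungs. Nlrp1b measured 0.497 to 0.928 TPM in KO lungs and 0.188 to 0.469 TPM in DBA lungs, and Cd5l had medians of 0.369 and 0.1765 TPM. Gpnmb measured 8.98 to 9.85 TPM in KO lungs (median 9.34) and 0.109 to 0.385 TPM in DBA lungs (median 0.363). Rpl29 measured 195 to 224 TPM against 0.416 to 1.25 TPM, and Ifi202b was at most 0.353 TPM in KO and 5.98 to 9.33 TPM in DBA. Gdf15 did not follow its macrophage difference, at 4.42 to 8.82 TPM in KO lungs and 3.52 to 7.62 TPM in DBA lungs. Cdkn1a, which overlapped between the macrophage groups and is not one of the 30, measured 243 to 284 TPM in KO lungs. In DBA lungs it measured 120 to 196 TPM, with no overlap. C1qb measured 54.2 to 119 TPM in KO lungs and 26.3 to 37.2 TPM in DBA lungs, with no overlap, whereas the lung levels of C1qa and C1qc overlapped. A single KO lung library was the highest for all 3 chains, at 101 TPM for C1qa and 63.2 TPM for C1qc. The adhesion genes Clmp and Nrcam, the carrier Slc22a4 and Chst10, H2-Q2, Mamdc2 and Klk1b11 were the other genes that overlapped. Trem2 measured 1.96 to 2.67 TPM in KO lungs and 2.67 to 5.57 TPM in DBA lungs, with the highest KO library just above the lowest DBA library.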

How the data were processed

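Poly(A) RNA of macrophage cultures was sequenced, and per the submitters' processing notes the authors aligned reads with STAR to mm10 and quantified them with HOMER. The deposited tables give TPM for 24940 transcripts, 1 per gene symbol, per the file headers. Deposited p53 peaks carry a score, the tag count of combined replicates scaled by HOMER, per the file headers. Bowtie2 is also named in the submitters' processing notes. Tool versions were not given.

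TPM times transcript length gave whole multiples of a library constant (tolerance 0.15) in 100% of values tested, and so the estimated reads. Replicates differed by more than counting noise. Genes with at least 1 TPM in 2 libraries (12320) were transformed to log2(TPM + 1) and fitted with limma 3.58.1 (R 4.3.3) with 1 mean for each of 6 groups of 12 libraries, 6 residual degrees of freedom, a variance trend and Benjamini-Hochberg adjustment over all genes. The procedure was tested on simulated data. Tables and plots were made with Python 3.11.15 and pandas 2.3.3.

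Named genes are Trem2, Tyrobp, Trp53, Cdkn1a, Mdm2, Nnt and Gpnmb, the 15 largest called differences in each direction without overlap, with a mean of at least 5 TPM and without predicted genes, up to 5 called members of each list, and up to 5 called oxygen-response genes in each direction. Others are named as list members, and some genes under this rule are not reported here. Members and lists were chosen with earlier results of these data known. The alternatives were other pseudocounts, filters, scalings and sets of libraries, a replicate block, and each library left out.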

Additional observations from a re-analysis of the deposited data

Results flagged for a closer look

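The change with oxygen differed between KO and DBA macrophages, by a test of the difference itself, for Rasd2 (1.55 on the log2 scale), H2-Ea-ps (1.13), Mir20a (1.97) and Mir6918 (-2.99). With a pseudocount of 0.1 Mir6918 was the only one of the 4 still called, and when single libraries were left out none of the 4 was called, except Mir6918 without DBA library 2 in hyperoxia. H2-Ea-ps was listed at 0 in all KO libraries, Mir20a was listed at 0 outside the room-air DBA libraries, and Mir6918 in hyperoxic KO and room-air DBA libraries. Mir6918 was at most 3.14 TPM in the KO and DBA libraries. A smaller pseudocount widens differences from 0, and that of Mir6918 became -8.48 with a pseudocount of 0.1. Its call in that setting is therefore no sign of a firmer result.

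Among the 30 leading genes, 1 of 4 lung libraries stood far from the others of its group in 7 of 58 gene groups examined. Chance flags about 1 in 20 groups, and genes of the same libraries are not independent. The highest library was the distant one for Cd5l in KO lungs (11.0 TPM), C1qb in KO lungs (119 TPM) and Mndal in DBA lungs (0.452 TPM). The distant library of Cd5l and C1qb in KO lungs is the same one, which was also the highest for C1qa and C1qc. The lowest was the distant one for Gpnmb (0.109 TPM), C1qb (26.3 TPM) and Ctse (4.07 TPM) in DBA lungs and for H2-Q5 in KO lungs (0.617 TPM). Without the distant libraries C1qb measured 54.2 to 62.0 TPM in KO lungs and 35.4 to 37.2 TPM in DBA lungs.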

How the results depend on the processing

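The count of called genes in hyperoxia stayed within 1.5 times of 2676 under 8 alternatives, from 2394 with a minimum of 5 TPM to 3907 with only the 4 libraries compared. It was 531 with a minimum absolute log2FC of 1 and 1401 to 1607 when a library was left out, by construction fewer samples. In room air it was 2924 to 4079 under the alternatives that kept the compared libraries and 1571 to 2860 when one was left out. The oxygen-response count of 4 became 2 with a pseudocount of 0.1, 17 with no filter, 2 after quantile normalization, 18 with only KO and DBA libraries, 10 with the replicate block and 0 to 1 when a library was left out, and the cause was not tested. Of 121 named genes that were called, 89 kept direction and call in all 12 settings and none reversed. With no filter on low values the calls of Acta2, Apoe, H2-D1, Ifi203, Ifi211, Lipa, Ngp, Psap, Rrm2b, S100a9 and Slc7a11 were lost among the genes described. Replicate numbers are given only as numbers, and deviations of same-numbered libraries of KO and DBA in hyperoxia correlated at 0.04, so they were not used as pairs. With the replicate block 3715 genes were called in hyperoxia and 4079 in room air, and the named genes were all on the same side of the threshold. With only KO and DBA libraries in the fit more list members were called in both directions, for example 11 higher and 5 lower NRF2 genes and 7 higher lipid-associated genes. Precision is limited by 2 libraries a group, of 17.8 to 44.8 M reads.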
